A study of Mus musculus with 8 samples.

Results

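Polyamines and S-adenosylmethionine are made by linked pathways, and 10 mouse genes of both were followed here on Agilent 4x44K arrays of Ba/F3 cells, an IL3-dependent line of mouse pro-B cells. The genes are Srm, Sms, Odc1, Amd1, Sat1, Oaz1, Oaz2, Mat2a, Mat2b and Ahcy, found by their names in the array files. They are represented by 24 of the 41174 probes on the array, and they are 10 of the 13706 genes tested. The cells expressed FLT3, a receptor tyrosine kinase of blood progenitors, either with an internal tandem duplication (FLT3/ITD, alleles N51 and N78) or as wild type FLT3. All cells were grown with mouse IL3 and washed. They then spent 4 h in albumin medium that held either 100 ng/ml of mouse Cxcl12 (the chemokine that binds Cxcr4) or none. The 4 groups were FLT3/ITD with Cxcl12, FLT3/ITD without Cxcl12, wild type FLT3 with Cxcl12 and wild type FLT3 without Cxcl12, with 2 arrays each. The labels do not say whether a line was 1 clone or a pool, nor what drives FLT3 or from which species it came.

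The 8 arrays lay on 2 slides, with every group once on each slide. N51 cells were on slide 1 and N78 cells on slide 2, so allele and slide cannot be told apart. Each group also held the same position on both slides, so group and position cannot be told apart. The arrays of an FLT3/ITD group held different alleles, while nothing in the labels says that those of a wild type group came from separate cultures. The p-values therefore measure the spread between these arrays. That spread may be technical in wild type cells, and in FLT3/ITD cells it also holds any difference between the alleles. On each array 49.2% to 54.9% of non-control spots were well above background and none was saturated. All 24 probes of the 10 genes were well above background on all 8 arrays. The probe for Flt3 was above background on 0 of 4 arrays of slide 1 and on 4 of 4 of slide 2, in wild type and FLT3/ITD cells alike, and so does not check the labels. Of the pro-B cell markers, Igll1, Ebf1, Pax5, Il7r and Rag1 were well above background on 0 of 8 arrays, while 9 of 14 were tested and 2 (Ptprc and Csf2rb2) fell in FLT3/ITD cells. Levels below are log2 of the array's intensity, background-subtracted by the authors' scanner software, minus log2 of that array's 75th percentile, so 0 is the 75th percentile. A difference is a log2 value fitted by limma with the slide as a block, given with its standard error (SE), and it passed where its p, adjusted over all genes by the method of Benjamini and Hochberg, was under 0.05.

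As background, ornithine decarboxylase (Odc1) makes putrescine, and S-adenosylmethionine decarboxylase (Amd1) supplies the aminopropyl groups. Spermidine synthase (Srm) and spermine synthase (Sms) add those groups to give spermidine and spermine. Antizymes (Oaz1, Oaz2) bind ornithine decarboxylase and send it to the proteasome, while Sat1 acetylates spermidine and spermine for breakdown or export. Mat2a and its regulatory partner Mat2b form the methionine adenosyltransferase that makes S-adenosylmethionine outside the liver, and Ahcy clears the S-adenosylhomocysteine left by each methylation. Odc1 and Srm are known targets of the transcription factor MYC, which pairs with MAX on the E-box CACGTG.

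Promoters of 9 of the 10 genes were in the RefSeq table (build GRCm38.p6, 250 bases before to 50 after a start), and Srm was not among them. The E-box CACGTG, which is its own reverse complement, was found in 1 of the 10 promoters of these 9 genes, the upstream one of the 2 of Sms. It was in 2349 of all 32851 promoters of that table, or 7.15%. The Sms match began at position -196 from the start. The promoters of Odc1, Amd1 and Mat2a, the genes of this table on which the results below turn, held none in this window, and in mouse Odc1 the known E-boxes lie in the first intron, outside it. Capitals mark the E-box.
Sms upstream promoter, chrX:157492238-157492537, minus strand: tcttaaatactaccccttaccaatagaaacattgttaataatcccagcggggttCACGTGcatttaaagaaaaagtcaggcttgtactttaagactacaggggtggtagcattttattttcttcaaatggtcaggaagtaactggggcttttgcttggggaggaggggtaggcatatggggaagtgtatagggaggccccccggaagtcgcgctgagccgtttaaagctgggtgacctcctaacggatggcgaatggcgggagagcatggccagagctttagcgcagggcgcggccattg
Odc1 promoter, chr12:17544623-17544922, plus strand: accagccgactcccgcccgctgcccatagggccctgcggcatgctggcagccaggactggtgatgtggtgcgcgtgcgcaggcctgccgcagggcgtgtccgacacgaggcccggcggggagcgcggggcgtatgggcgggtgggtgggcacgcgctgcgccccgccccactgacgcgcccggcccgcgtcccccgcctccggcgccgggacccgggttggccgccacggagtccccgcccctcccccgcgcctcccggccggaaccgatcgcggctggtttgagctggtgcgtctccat
Amd1 promoter, chr10:40302139-40302438, minus strand: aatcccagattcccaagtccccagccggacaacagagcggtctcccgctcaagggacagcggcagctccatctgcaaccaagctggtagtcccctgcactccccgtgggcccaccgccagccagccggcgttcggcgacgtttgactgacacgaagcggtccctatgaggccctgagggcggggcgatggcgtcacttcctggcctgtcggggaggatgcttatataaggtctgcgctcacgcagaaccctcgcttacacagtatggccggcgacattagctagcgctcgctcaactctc
Mat2a promoter, chr6:72439507-72439806, minus strand: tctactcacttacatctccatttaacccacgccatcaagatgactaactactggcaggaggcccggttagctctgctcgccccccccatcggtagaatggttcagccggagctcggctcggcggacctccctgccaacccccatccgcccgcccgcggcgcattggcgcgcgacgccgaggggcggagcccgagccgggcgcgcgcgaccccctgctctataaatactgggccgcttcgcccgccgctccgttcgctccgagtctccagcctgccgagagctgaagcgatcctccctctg

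Some probes do not tell a gene from a close copy. The 60-base probes A_52_P436238 and A_52_P7041 are both labelled Odc1 in the files of slide 1, but those of slide 2 assign A_52_P7041 to Gm15645 on chromosome 7. They are shown because the Odc1 result differs by probe. Positions are those of mm9 in the files of slide 2.
A_52_P436238, chr12:17554799-17554858, plus strand: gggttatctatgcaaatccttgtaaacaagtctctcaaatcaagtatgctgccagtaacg
A_52_P7041, chr7:113011625-113011681, plus strand: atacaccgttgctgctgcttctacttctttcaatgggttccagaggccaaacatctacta
The values of A_52_P7041 are therefore uncertain between Odc1 and that copy. The 4 probes of Oaz2 are named Oaz2-ps in the files of slide 2, and a probe of Sms carries a transcript name there, so 18 of the 24 probes kept a member's name. An Ahcy probe (A_51_P473528) was placed on chromosome 16, away from the others on chromosome 2, and Amd1 has the near-identical copy Amd2. Transcripts of such copies may hybridise to the same probe, so the values of Ahcy and Amd1 are likewise uncertain. Srm and Mat2a had a single probe each, so their results could not be compared with another probe of the same gene.

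In FLT3/ITD cells the spermidine synthase mRNA Srm was higher than in wild type FLT3 cells on both slides, by 1.68 ± 0.28 (SE) or 3.21-fold on average over cells with and without Cxcl12. Odc1 and Amd1, the genes of the enzymes that supply its substrates, were also higher on average, each past the threshold on 1 probe but not on the brightest one. On the brightest Amd1 probe the difference was 0.69 with Cxcl12 and 0.09 without it. Sat1, the acetylating enzyme, was lower on both slides without passing. Of the 10 genes, 1 rose (Srm), 0 fell and 9 did not pass, against 6.2% of all genes called (850 of 13706, of which 494 rose and 356 fell). With the authors' own normalized values 935 genes rose and 302 fell, and the median of all genes stood at 0.12. The median difference of the 10 was 0.10, against -0.0096 over all genes. Of the 24 probes, 3 passed in the fit of all 21126 kept probes, where 6.03% passed. In bulk RNA, more cells of a kind and more RNA per cell cannot be told apart.

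Srm (probe at chr4:147968433-147968492, plus strand, mm9) had levels of 4.30 and 4.41 in FLT3/ITD cells with Cxcl12, on slides 1 and 2 in that order here and below. It had 2.77 and 4.75 in FLT3/ITD cells without Cxcl12, 2.03 and 2.91 in wild type cells with Cxcl12, and 1.41 and 3.15 in wild type cells without it. On each slide both FLT3/ITD arrays were above both wild type arrays. Pooled over slides the groups overlapped, since both wild type arrays of slide 2 were above the lowest FLT3/ITD array of slide 1. The mean was 4.06 ± 0.88 (SD, n = 4) in FLT3/ITD cells and 2.37 ± 0.80 (SD, n = 4) in wild type cells. The adjusted p was 0.0138 (limma), and the difference was 1.82 for N51 and 1.55 for N78. Taken separately, it was 1.88 ± 0.40 with Cxcl12 (adjusted p = 0.0722) and 1.48 ± 0.40 without it (adjusted p = 0.195), neither past the threshold. The call was lost without the slide block (adjusted p = 0.832) and with dim probes kept in (0.0646). It was also lost on leaving out 1 of 3 arrays, with 1.78 and an adjusted p of 0.0523 without wild type with Cxcl12 of slide 1, 1.42 and 0.0782 without FLT3/ITD of slide 2, and 1.59 and 0.0834 without wild type with Cxcl12 of slide 2.

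**Figure D1:**
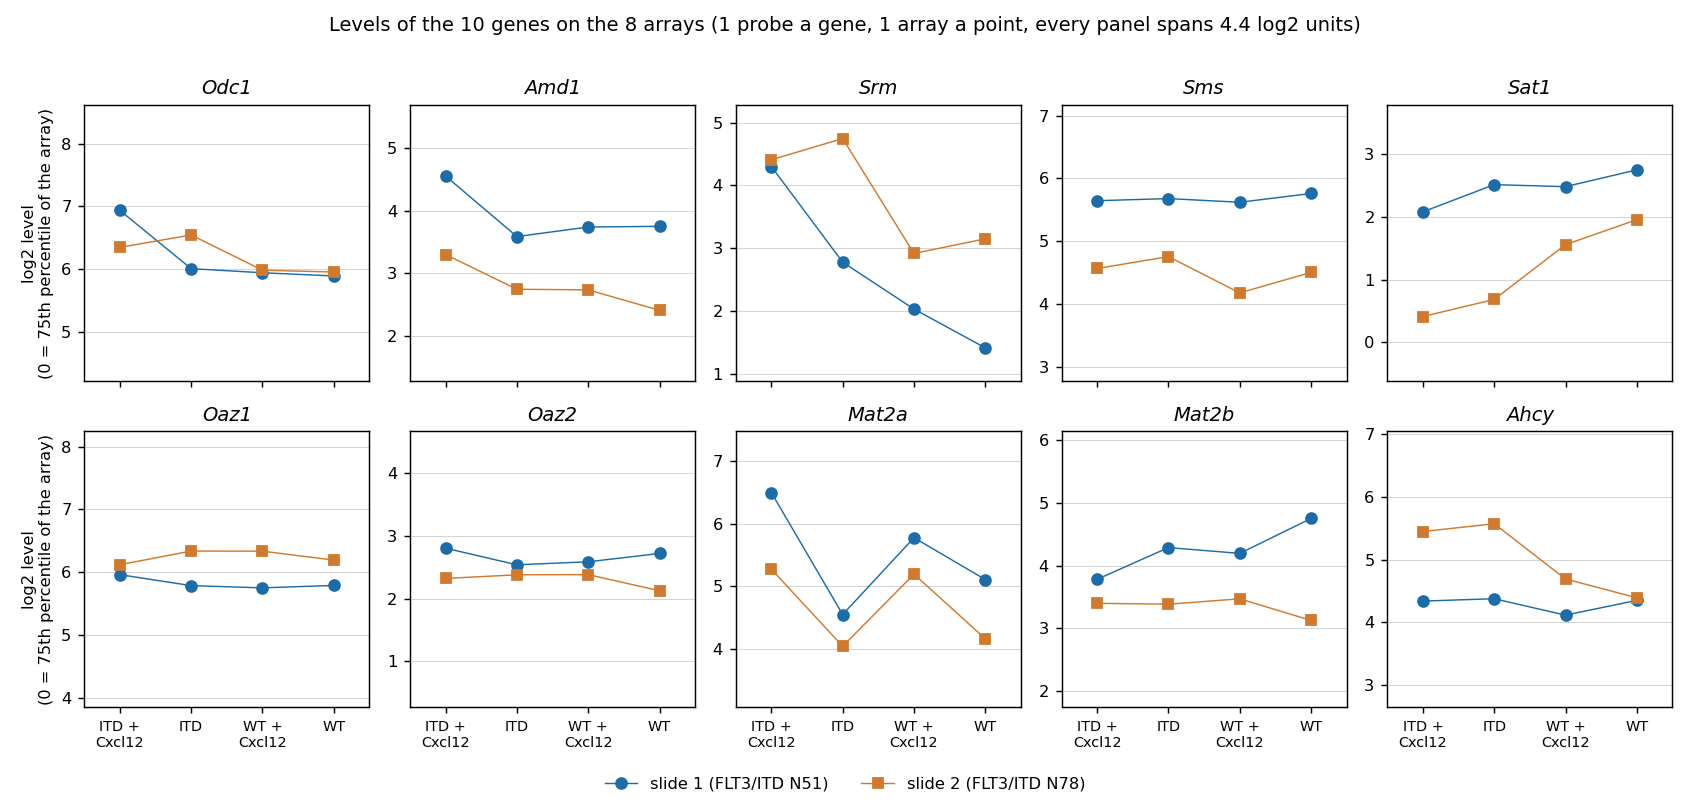
Log2 levels of the 10 genes on the 8 arrays, 1 probe a gene, against the group on the x axis, with circles for slide 1 (N51) and squares for slide 2 (N78), joined within a slide. Srm was higher in FLT3/ITD than in wild type cells on both slides, and Mat2a was higher with Cxcl12 in both kinds of cell.

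Odc1, the rate-limiting enzyme of polyamine synthesis, had the same direction on all 3 probes labelled with its name on slide 1. One of them, A_52_P7041, is labelled Gm15645 on slide 2. The brightest probe read 6.93 and 6.35 in FLT3/ITD cells with Cxcl12, 6.01 and 6.54 in FLT3/ITD cells without it, 5.94 and 5.98 in wild type cells with Cxcl12 and 5.89 and 5.95 in wild type cells without it. All 4 FLT3/ITD arrays were above all 4 wild type arrays, though the FLT3/ITD array of slide 1 without Cxcl12 lay close to the wild type ones. The average difference was 0.52 ± 0.17 and did not pass (limma, adjusted p = 0.105). The probe A_52_P436238 read 2.38 and 1.59 in FLT3/ITD cells with Cxcl12, 2.10 and 1.71 without it, 1.79 and 0.63 in wild type cells with Cxcl12 and 1.47 and 0.75 without it. On each slide the FLT3/ITD arrays were above the wild type ones, and by this probe Odc1 rose, by 0.79 ± 0.17 (adjusted p = 0.0339 over all probes). That call was kept when FLT3/ITD without Cxcl12 of slide 1 was left out, and was lost on leaving out any other array, with differences of 0.66 to 0.92 and adjusted p of 0.0538 to 0.189. It was lost as well with normexp background correction (0.83, adjusted p = 0.124), with dim probes kept in (0.0767) and without the slide block (1.0). The probe A_52_P7041, uncertain between Odc1 and Gm15645, differed by 0.51 ± 0.16 (adjusted p = 0.0828 over all probes). Leaving out FLT3/ITD with Cxcl12 of slide 2 brought the brightest probe's difference to 0.72 with an adjusted p of 0.0385.

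Amd1 provides decarboxylated S-adenosylmethionine, the donor for both aminopropyl steps. Its brightest probe read 4.55 and 3.30 in FLT3/ITD cells with Cxcl12, 3.59 and 2.75 in FLT3/ITD cells without it, 3.74 and 2.74 in wild type cells with Cxcl12 and 3.75 and 2.41 in wild type cells without it. On both slides the FLT3/ITD cells with Cxcl12 were highest, while the other groups lay closer together. The average difference was 0.39 ± 0.15 (adjusted p = 0.141). Taken separately, it was 0.69 ± 0.21 with Cxcl12 and 0.09 ± 0.21 without it, where slide 1 gave -0.16 and slide 2 gave 0.34. Neither passed (limma, adjusted p = 0.146 and 0.878). The dimmer probe A_52_P484807 read -0.87 and -1.54 in FLT3/ITD cells with Cxcl12, -1.78 and -2.29 without it, -1.82 and -2.68 in wild type cells with Cxcl12 and -2.12 and -2.82 without it. By this probe Amd1 rose by 0.74 ± 0.18 (adjusted p = 0.0462 over all probes), a call lost on leaving out any 1 of the 8 arrays (differences of 0.68 to 0.80, adjusted p of 0.0694 to 0.23). With normexp background correction in place of the scanner's, the difference of that probe was 0.05, and the call was also lost with quantile normalization (adjusted p = 0.0536), with dim probes kept in (0.14) and without the slide block (1.0).

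Sms, which makes spermine from spermidine, showed no difference past the threshold on any of its 3 probes. On the brightest it read 5.65 and 4.56 in FLT3/ITD cells with Cxcl12, 5.68 and 4.75 in FLT3/ITD cells without it, 5.62 and 4.18 in wild type cells with Cxcl12 and 5.76 and 4.50 in wild type cells without it. The slides stood further apart than the groups did. The average FLT3/ITD difference was 0.15 ± 0.14 (adjusted p = 0.532), and the other probes gave -0.27 ± 0.18 and 0.22 ± 0.18.

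Sat1 starts polyamine breakdown. It read 2.08 and 0.41 in FLT3/ITD cells with Cxcl12, 2.51 and 0.68 in FLT3/ITD cells without it, 2.48 and 1.56 in wild type cells with Cxcl12 and 2.75 and 1.95 in wild type cells without it. On slide 2 both N78 arrays were below both wild type arrays, and on slide 1 the N51 array without Cxcl12 was close to the wild type array with it. The average difference was -0.76 ± 0.21 (adjusted p = 0.0619), made of -0.32 for N51 and -1.21 for N78. Its other probe differed by -0.45 ± 0.16 (adjusted p = 0.118 over all probes), with -0.37 for N51 and -0.53 for N78. On leaving out wild type without Cxcl12 of slide 1 the difference was -0.93 with an adjusted p of 0.0423.

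No probe of the antizymes passed. Oaz1 differed by 0.03 ± 0.13 (adjusted p = 0.895) between FLT3/ITD and wild type cells, with levels of 5.79 to 6.34 in FLT3/ITD cells and 5.75 to 6.33 in wild type cells. Its other probe gave 0.24 ± 0.13 (adjusted p = 0.261 over all probes). Oaz2 differed by 0.06 ± 0.15 (adjusted p = 0.843), with levels of 2.32 to 2.81 in FLT3/ITD cells and 2.13 to 2.72 in wild type cells. Its other 3 probes differed by -0.06 to 0.05. With these SEs a small difference in either gene would not have been detectable.

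Of the genes of S-adenosylmethionine turnover, none passed between FLT3/ITD and wild type cells. Mat2a differed by 0.03 ± 0.15 (adjusted p = 0.926). Its partner Mat2b differed by -0.17 ± 0.20 (adjusted p = 0.619), with levels of 3.78 and 3.40 in FLT3/ITD cells with Cxcl12, 4.29 and 3.38 without it, 4.19 and 3.47 in wild type cells with Cxcl12 and 4.75 and 3.13 without it. The difference of Mat2b was -0.44 for N51 and 0.09 for N78. Ahcy read 4.34 and 5.45 in FLT3/ITD cells with Cxcl12, 4.38 and 5.57 in FLT3/ITD cells without it, 4.12 and 4.69 in wild type cells with Cxcl12 and 4.35 and 4.39 in wild type cells without it. The N78 arrays stood above all others, and the N51 arrays lay among the wild type ones. The average difference of Ahcy was 0.55 ± 0.20 (adjusted p = 0.125), made of 0.13 for N51 and 0.97 for N78. The other Ahcy probes gave 0.41 ± 0.15 and 0.70 ± 0.25, each larger on slide 2 (0.64 and 1.28) than on slide 1 (0.18 and 0.12). N51 and N78 were each measured on 1 slide, so a difference between them and one between slides cannot be told apart. Leaving out 1 array moved the Ahcy difference between 0.32 and 0.78, with 0.78 reached without wild type of slide 1, where the adjusted p was 0.0378.

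**Figure D2:**
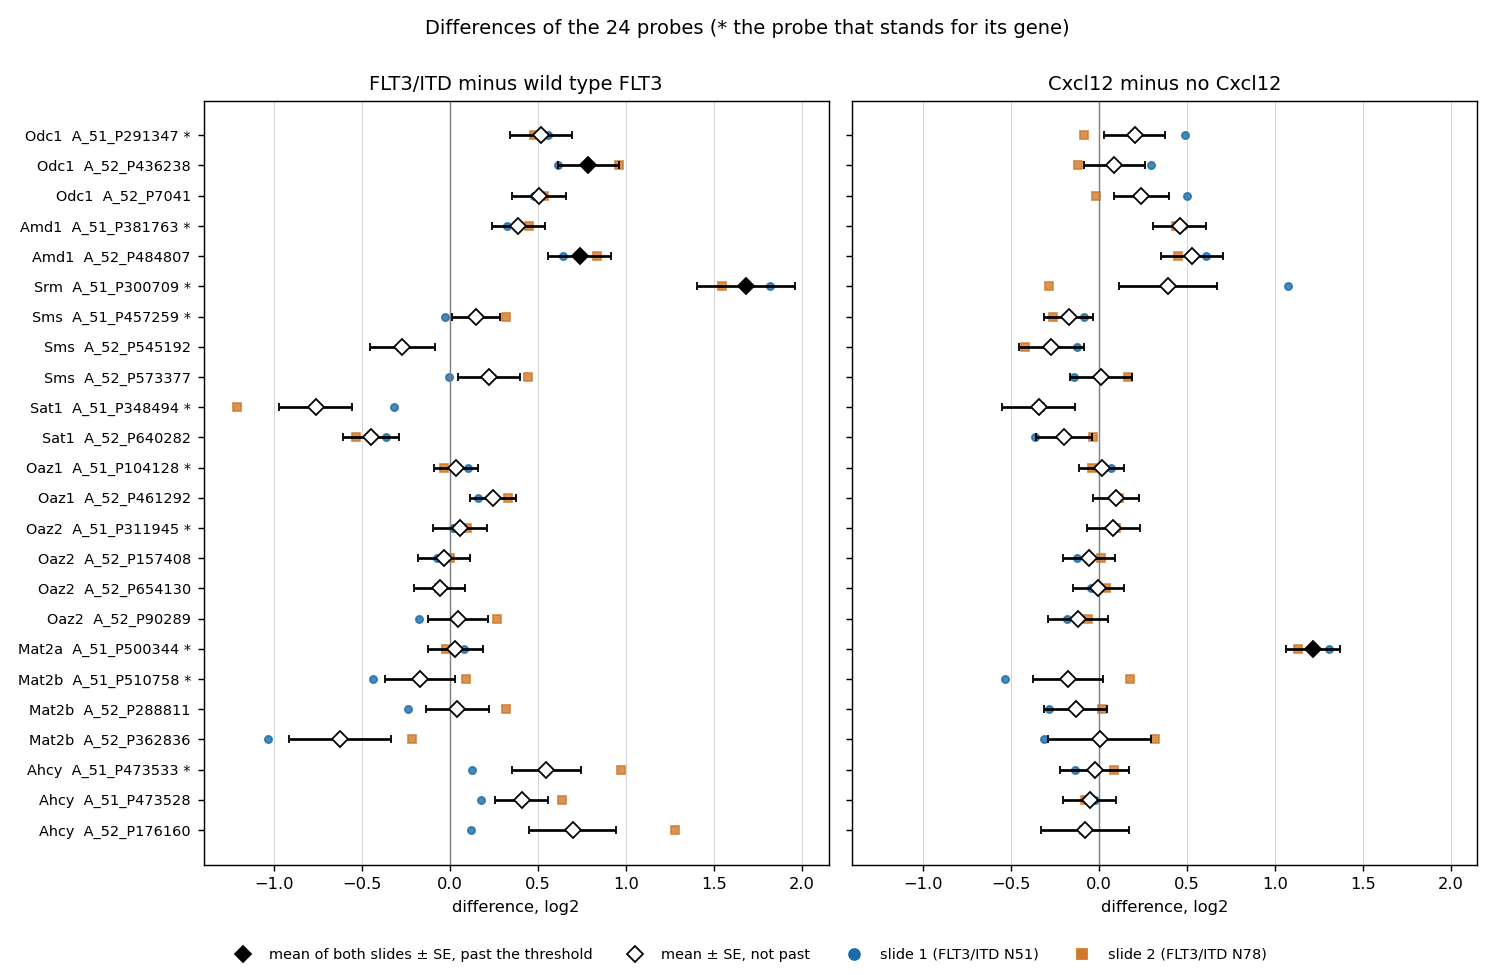
Log2 differences of all 24 probes, FLT3/ITD minus wild type on the left and Cxcl12 minus no Cxcl12 on the right, as the fitted mean ± SE (diamonds, filled where past the threshold) with the value of each slide (circles and squares). On the left Srm, 1 probe of Odc1 and 1 of Amd1 are filled, and on the right Mat2a alone.

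The FLT3/ITD and wild type lines differed in markers of other blood cells too. Of 14 mast cell and basophil markers, 11 were tested, 5 fell and 0 rose in FLT3/ITD cells. The summed level of those tested was 46.2 to 136 in FLT3/ITD cells and 207 to 362 in wild type cells, in units of the array's 75th percentile. This sum is of unlogged levels, and Cma1 had the highest mean log2 level in wild type cells (7.60). Mitf differed the other way, by 0.50, without passing. Kit, Tpsb2 and Tpsab1 were well above background on 0 of the 8 arrays. Of 9 neutrophil markers, 4 were tested and 1, Ctsg, fell by 4.83 ± 0.48, with summed levels of 2.44 to 9.55 in FLT3/ITD cells and 28.6 to 76.5 in wild type cells, and Elane, Ltf, Camp and S100a8 were never above background. The other tested neutrophil markers did not pass and did not share a direction: Prtn3 differed by 0.44, S100a9 by 1.1, and Mpo by -4.04 on slide 1 and 0.59 on slide 2. Of 4 tested monocyte markers 1 rose (Lyz2), with a list median of -0.21, since Adgre1 (-0.68), Cd14 (-0.34) and Cd68 (-0.08) were on the other side of 0. Of 4 tested erythroid markers 1 rose (Tfrc), with a median of -0.00047, and Epor (-0.62) and Klf1 (-0.24) were below 0. Of 5 tested T and NK cell markers 0 passed, with a median of 0.13. The part of these markers in the differences of Srm, Odc1 and Amd1 was not tested.

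With Cxcl12, the mRNA of Mat2a, the catalytic subunit that makes S-adenosylmethionine, was 2.32-fold higher on average, in both kinds of cell and on both slides. No other member passed. Of the 10 genes, 1 rose (Mat2a), 0 fell and 9 did not pass, against 0.387% of all genes (53 of 13706, of which 21 rose and 32 fell). The median difference of the 10 was 0.05, against 0.0082 over all genes. At the level of probes 1 of 24 passed, against 0.213% of the 21126 kept probes.

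Mat2a (probe at chr6:72382856-72382915, minus strand, mm9) read 6.49 and 5.27 in FLT3/ITD cells with Cxcl12, against 4.55 and 4.04 in FLT3/ITD cells without it. It read 5.77 and 5.19 in wild type cells with Cxcl12, against 5.11 and 4.16 in wild type cells without it. All 4 arrays with Cxcl12 were above all 4 arrays without it, and on both slides the order was FLT3/ITD with Cxcl12, wild type with Cxcl12, wild type without and FLT3/ITD without. On slide 2 the first pair of that order was 0.08 apart and the last 0.12, less than the SE of 0.22 of a single comparison. The mean was 5.68 ± 0.60 (SD, n = 4) with Cxcl12 and 4.47 ± 0.48 (SD, n = 4) without it, a difference of 1.22 ± 0.15 (adjusted p = 0.0274). In FLT3/ITD cells alone the difference was 1.59 ± 0.22 (adjusted p = 0.225), and in wild type cells alone it was 0.85 ± 0.22 (adjusted p = 0.363), neither past the threshold over all genes.

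The Mat2a call depended on the setting. It was lost without the slide block (adjusted p = 1.0), with dim probes kept in (0.148) and with normexp background correction, where the difference was 0.81 (adjusted p = 0.897). It was also lost on leaving out any 1 of 5 arrays, with 1.11 and an adjusted p of 0.133 without FLT3/ITD of slide 1, 1.29 and 0.0699 without wild type with Cxcl12 of slide 1, 1.08 and 0.0777 without FLT3/ITD with Cxcl12 of slide 1, 1.17 and 0.072 without wild type of slide 2, and 1.14 and 0.225 without wild type with Cxcl12 of slide 2. The direction was kept in each of these.

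Amd1 was higher with Cxcl12 on average by 0.46 ± 0.15 (adjusted p = 0.197), by 0.48 on slide 1 and 0.44 on slide 2, and its other probe by 0.53 ± 0.18. Srm differed by 0.39 ± 0.28 (adjusted p = 0.57), with opposite signs on the slides: 1.07 on slide 1 and -0.29 on slide 2. Odc1 was likewise 0.49 higher with Cxcl12 on slide 1 and -0.08 on slide 2, for an average of 0.20 ± 0.17 (adjusted p = 0.645). Sat1 differed by -0.34 ± 0.21 (adjusted p = 0.491), with -0.35 and -0.34 on the slides. Sms differed by -0.17 ± 0.14, Mat2b by -0.18 ± 0.20, Ahcy by -0.02 ± 0.20, Oaz1 by 0.02 ± 0.13 and Oaz2 by 0.08 ± 0.15, all with adjusted p of 0.614 or more.

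Taken by kind of cell and on the brightest probe, Srm, Amd1, Odc1 and Mat2a each had their largest difference with Cxcl12 in N51 cells, on slide 1. Srm was there 1.53 higher, Amd1 0.96, Odc1 0.93 and Mat2a 1.94 higher with Cxcl12 than without. In N78 cells on slide 2 Srm differed by -0.34, Amd1 by 0.55, Odc1 by -0.20 and Mat2a by 1.23. In wild type cells Srm differed by 0.62 and -0.23, Amd1 by -0.01 and 0.33, Odc1 by 0.05 and 0.03, and Mat2a by 0.67 and 1.03. The other Odc1 probes did not share the N51 pattern. On slide 1 A_52_P7041 differed by 0.49 in N51 and 0.51 in wild type cells, and A_52_P436238 by 0.28 and 0.32. None of the 10 genes passed in either kind of cell, where 0% of all genes passed in FLT3/ITD cells (0 by limma, with 1430 at an unadjusted p under 0.05) and 0.0657% in wild type cells (9 of 13706). For ITD without Cxcl12 and with it 0 of 10 genes passed as well, against 0.511% and 0.839% of all genes.

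**Figure D3:**
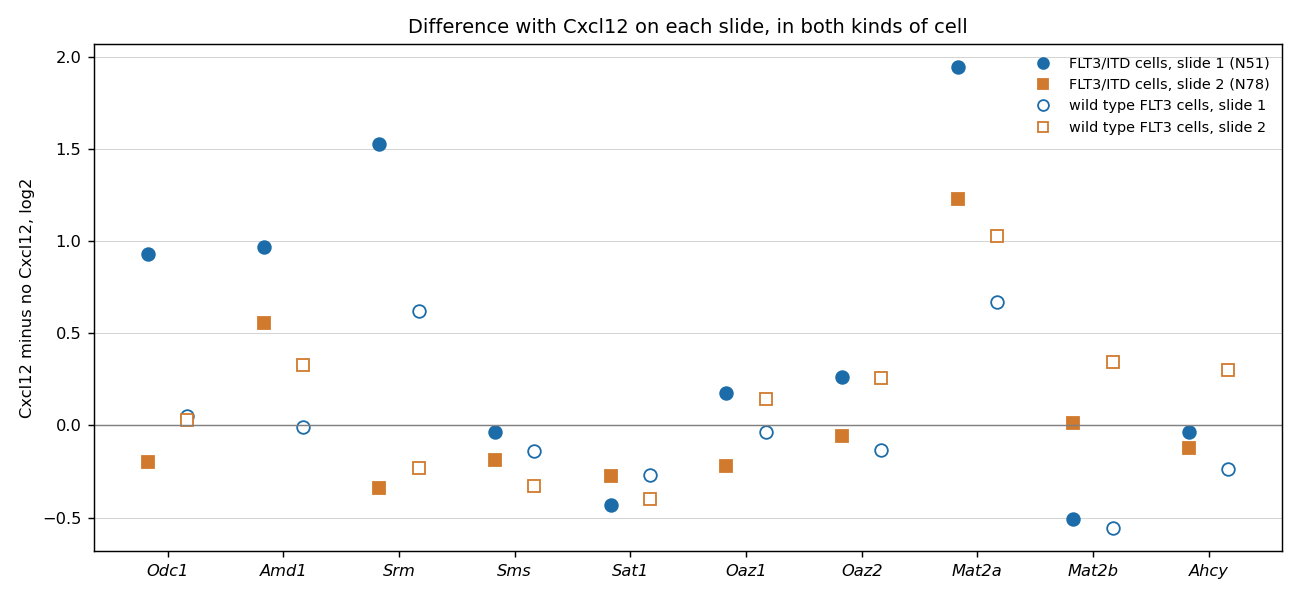
Log2 difference with Cxcl12 on each slide for the 10 genes, 1 probe a gene. Filled points are FLT3/ITD cells and open ones wild type cells, with circles for slide 1 and squares for slide 2. Mat2a is above 0 in all 4 pairs of arrays (0.67 to 1.94), while Srm and Odc1 are highest for N51 (1.53 and 0.93) and below 0 for N78 (-0.34 and -0.20).

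The interaction asks whether the difference with Cxcl12 in FLT3/ITD cells differs from that in wild type cells. For Mat2a it was 0.74 ± 0.31 (unadjusted p = 0.0406 by limma, adjusted p = 1.0), with 1.28 on slide 1 and 0.20 on slide 2. For Amd1 it was 0.60 ± 0.30, with 0.98 on slide 1 and 0.23 on slide 2. The other Amd1 probe gave 0.61 ± 0.36, with 0.62 on slide 1 and 0.61 on slide 2. For Srm the interaction was 0.40 ± 0.56 and for Odc1 0.33 ± 0.35, and the other 6 genes lay between -0.14 and 0.12. The other probes of Odc1 gave -0.02 ± 0.34 and -0.10 ± 0.31. None of the 10 genes passed, and 0% of all genes passed by limma, with 238 of 13706 at an unadjusted p under 0.05. A different response of the kinds of cell was thus not shown for any member, nor was an equal one.

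Genes of connected pathways were counted beside the members. Smox, which oxidises spermine back to spermidine, is left out of the counts. It entered the test only through FLT3/ITD cells without Cxcl12, where it is highest, and was well above background on 3 of 4 FLT3/ITD arrays and 1 of 4 wild type arrays. In FLT3/ITD cells 6 of the other 43 tested genes of the 5 lists rose and 0 fell, and with Cxcl12 0 of all 44 passed. Of 7 genes of polyamine turnover and transport 0 passed, with a median difference of 0.18, and of 4 hypusination genes 1 rose, with a median of 0.36. Of 5 genes of methionine salvage 1 rose (median 0.29), of 9 of the methionine cycle 1 rose (median 0.07) and of 18 methyltransferases that use S-adenosylmethionine 3 rose (median 0.47). Over all genes the median was -0.0096 and 6.2% passed in either direction (850 of 13706, of which 494 rose). The lists were chosen with earlier results of these data known, so their counts are a description.

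Within the lists, Eif5a (the translation factor whose hypusine is made from spermidine) had levels of 5.97 to 6.91 in FLT3/ITD cells and 5.37 to 6.16 in wild type cells, a difference of 0.71 ± 0.13 (adjusted p = 0.0176). Mri1, an isomerase of the pathway that recycles the methylthioadenosine left by polyamine synthesis, read 2.60 to 3.40 in FLT3/ITD cells and 1.95 to 2.19 in wild type cells, without overlap, a difference of 0.94 ± 0.15 (adjusted p = 0.013). Mettl16, the methyltransferase that acts on hairpins in the Mat2a transcript, read 1.88 to 3.23 in FLT3/ITD cells and 1.31 to 1.88 in wild type cells, a difference of 1.02 ± 0.22 (adjusted p = 0.0341). Smox read -4.97 to -3.22 in FLT3/ITD cells and -6.71 to -5.04 in wild type cells, and with normexp background correction its difference was -0.39, so no direction is given for it. Among the methyltransferases Prmt5 differed by 0.77 ± 0.16 (adjusted p = 0.0308), Carm1 by 0.72 ± 0.17 (0.046) and Nsun2 by 0.59 ± 0.15 (0.0498). Prmt5 and Carm1 methylate arginines of proteins, and Nsun2 methylates cytosines of RNA.

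These calls, like that of Srm, could be lost on leaving out a single array. Of the 8 arrays left out in turn, the call was kept on 5 for Mri1, 4 for Eif5a, 3 for Prmt5, 2 for Mettl16 and Nsun2 and 1 for Carm1. Leaving out wild type with Cxcl12 of either slide or FLT3/ITD without Cxcl12 of slide 2 ended all 6, with adjusted p of 0.0551 to 0.226. Each difference kept its direction there, with values of 0.46 to 1.15. Without the slide block none of the 6 passed. Over all genes 361 passed with normexp background correction and 179 with dim probes kept in, against 850. The 6 calls are not given singly under those settings.

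**Figure D4:**
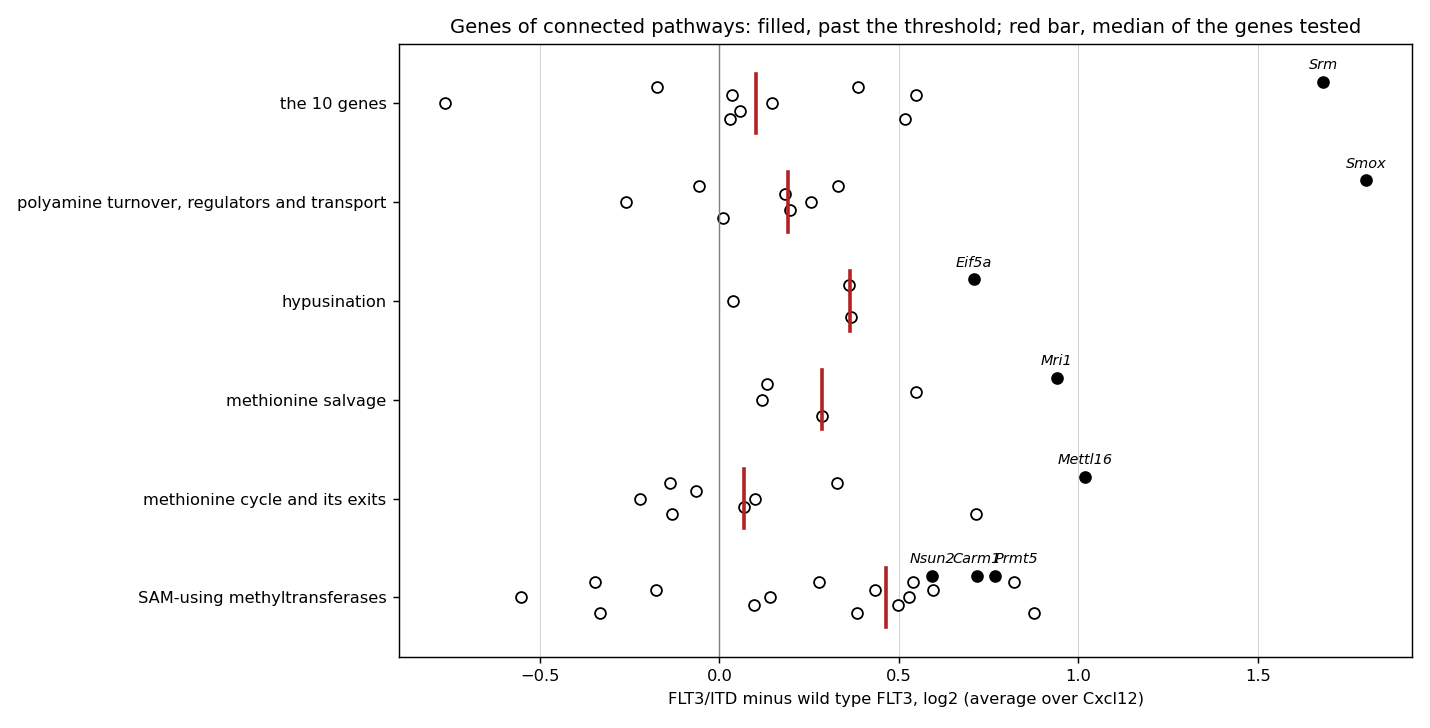
Log2 difference between FLT3/ITD and wild type cells, averaged over Cxcl12, for the 10 genes and the tested genes of 5 connected lists, 1 point a gene, filled where past the threshold, with the median of each list as a red bar. Among the 10 genes Srm lies farthest to the right, at 1.68. The filled point of the turnover list is Smox, which was well above background on 1 of 4 wild type arrays and lies on the other side of 0, at -0.39, with normexp background correction.

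For 4 members the genes with the most similar pattern over the 8 arrays, after the mean of each slide was taken off, were found among 10854 genes well above background on all arrays. They are a description, since the arrays share slide and groups. The most alike were Gm5124, Ggct and Ankrd13b for Srm (Pearson r = 0.99 each), Zfp672, Snhg3 and 1110065P20Rik for Odc1 (0.99 each), Ankle2, Ttc32 and Elovl6 for Amd1 (0.98 to 0.99), and Tusc2, Ccnyl1 and E2f3 for Mat2a (0.99 each). With normexp background correction 10 of these 12 correlations were 0.946 or more, while that of Odc1 with Zfp672 was 0.79 and that of Amd1 with Ankle2 was 0.58. Of the 45 pairs of members Srm and Odc1 were most alike, with r = 0.942. With normexp that pair had r = 0.945, and Sms with Oaz1, at -0.16 before, had the highest r, at 0.986.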

How the data were processed

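Per the file headers, each array was scanned in 1 colour and quantified with Agilent Feature Extraction (9.5.1.1 on slide 1, 10.7.3.1 on slide 2), and the deposited processed intensity is background-subtracted on each array by that software. The authors also deposited tables of normalized intensities, whose scaling is not given in the sources used here. At least 99.6% of the probes of each column lay within 0.01 (log2) of 1 array's intensities divided by their median.

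From the intensities, control and outlier spots were left out, spots of a probe averaged, and log2 taken relative to the 75th percentile. A probe was kept where the scanner software called it well above background in 1 or more groups, on each of the group's arrays (21126 probes), with the brightest standing for a gene (13706 genes, 12190 of them named). limma 3.58.1 in R 4.3.3 fitted 4 group means with the slide as a block (3 residual degrees of freedom), an intensity trend and Benjamini-Hochberg adjustment over all genes, or over all probes in the second fit. The precision is limited by the number of arrays. The slide is in the file headers, and deviations from the group means correlated at 0.73 to 0.879 within a slide. The procedure was tested on simulated data with the spread of these arrays. Of 13706 genes there, 100 were changed 2-fold and 100 were changed 4-fold. The share of genes changed in the real data is not known, and recovery may differ with it. In the simulation the procedure recovered 45% of 2-fold changes in the average FLT3/ITD effect and 47% in the average Cxcl12 effect. In the single comparisons it recovered 0% to 11% of 2-fold changes, and for the interaction 0% of 4-fold changes. All 10 genes and all genes past the threshold in 5 connected lists are named. Members and lists were chosen with earlier results of these data known. Alternatives were normexp with an offset of 50, the authors' tables, quantile normalization, no filter on dim probes, no slide block, the mean of a gene's probes, and leaving out each array. The results for single probes and for genes of the lists under these alternatives, and the list counts without Smox, were added after seeing the data.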

Additional observations from a re-analysis of the deposited data

Results flagged for a closer look

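Listed here are 4 of the 24 probes. In each, both pairs of arrays of 1 kind moved one way and both pairs of the other kind the opposite way. The share of all probes with such a pattern was not counted, so the number of probes listed is not a result. The gaps between N51 and N78 were not tested, and the gaps between kinds of cell did not pass as interactions. On the Mat2b probe A_52_P288811 both N51 differences from wild type were below 0 and both N78 ones above 0, a gap of -0.556 (N51 minus N78). On the Oaz2 probe A_52_P90289 the same held, with a gap of -0.442. On the Oaz2 probe A_52_P654130 both differences with Cxcl12 were below 0 in FLT3/ITD cells and above 0 in wild type cells, a gap of -0.245 (FLT3/ITD minus wild type). They were -0.10 and -0.15 in FLT3/ITD cells and 0.006 and 0.23 in wild type cells. The value of 0.006 is close to 0, and the SE of the wild type difference was 0.20. On the Sms probe A_52_P573377 the gap was -0.401, with -0.33 and -0.05 in FLT3/ITD cells and 0.04 and 0.38 in wild type cells. No other of the 24 probes met either pattern. The alleles N51 and N78 and the slides cannot be told apart.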

How the results depend on the processing

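With 8 arrays and 3 residual degrees of freedom, the number of calls moved with nearly every setting, and except where a construction is named the cause was not tested. The pairing of arrays by slide carried the calls: with no slide block 0 genes passed by limma between FLT3/ITD and wild type cells, against 850 with it (716 at an unadjusted p under 0.05), and 0 passed for the average Cxcl12 effect (308). Nor did any pass for FLT3/ITD without Cxcl12 (0, with 220 at an unadjusted p under 0.05), FLT3/ITD with it (0, with 371) or wild type cells given Cxcl12 (0, with 119), with 0 of the 10 genes and 0 of the 24 probes in both average effects. For the average FLT3/ITD effect normexp gave 361 genes and 1 of the 24 probes, and keeping dim probes gave 179 genes, 0 of the 10 and 0 of the 24. For the average Cxcl12 effect normexp gave 84 genes, 151 came from the authors' tables, quantile normalization 31 and keeping dim probes 0 (2963 at an unadjusted p under 0.05), and 0 of the 10 and 0 of the 24 passed with normexp or with dim probes kept. FLT3/ITD without Cxcl12 had 171 genes in the authors' tables, 32 with quantile normalization and 1 with dim probes kept. FLT3/ITD with Cxcl12 had 199 with normexp, 199 in the authors' tables and 21 with dim probes kept, and 1 of the 10 genes passed with each of normexp and the authors' tables. Cxcl12 in wild type cells had 0 with quantile normalization (1030 at an unadjusted p under 0.05), dim probes kept (1372) or the mean of probes (1018), Cxcl12 in FLT3/ITD cells 29 with normexp and 3 in the authors' tables, and the interaction 6 with normexp. Leaving out 1 array in turn gave 153 to 947 genes for the average FLT3/ITD effect, 0 to 215 for the average Cxcl12 effect, 9 to 88 for FLT3/ITD without and 20 to 226 with Cxcl12, 0 to 14 for Cxcl12 in wild type and 0 to 58 in FLT3/ITD cells, and 0 to 22 for the interaction. Of the 10 genes 0 to 3 then passed for the average FLT3/ITD effect, and 0 to 1 for each of the average Cxcl12 effect, FLT3/ITD with Cxcl12 and Cxcl12 in FLT3/ITD cells. Of the 24 probes 0 to 3 passed for the average FLT3/ITD effect and 0 to 1 for that of Cxcl12. The median of all genes moved to 0.12 for the average FLT3/ITD effect in the authors' tables and to 0.11 with dim probes kept.

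Signs turned in the following results. For FLT3/ITD against wild type, quantile normalization gave -0.092 for Oaz1 and -0.076 for Mat2a, and normexp 0.22 for Mat2b and -0.39 for the dim probe of Smox. With Cxcl12, normexp gave -0.015 for Srm, -0.18 for Odc1, -0.34 for Oaz1 and -0.24 for Oaz2, quantile normalization -0.018 for Oaz1, and the mean of probes -0.024 for Oaz2. For the interaction, Sms was -0.097 in the authors' tables, -0.12 with quantile normalization and -0.045 with the mean of probes. Sat1 was 0.43 with normexp and 0.046 with the mean, Oaz1 0.69 and 0.043, Oaz2 -0.18 in the authors' tables and -0.13 with the mean, and with normexp Mat2b 0.54 and Ahcy 0.62. Leaving out 1 array moved the FLT3/ITD difference of Mat2a between -0.11 and 0.17, Mat2b -0.41 and 0.066, Oaz1 -0.055 and 0.12, and Oaz2 -0.021 and 0.14. It moved the Cxcl12 difference of Ahcy between -0.25 and 0.21, Mat2b -0.41 and 0.063, and Oaz1 -0.074 and 0.10. It moved the interaction of Ahcy between -0.57 and 0.35, Mat2b -0.62 and 0.34, Oaz1 -0.25 and 0.10, Oaz2 -0.11 and 0.20, Odc1 -0.076 and 0.73, Sat1 -0.37 and 0.33, Sms -0.057 and 0.30, and Srm -0.31 and 1.11. Of 60 results for the average FLT3/ITD effect under the other 6 alternatives 55 kept direction and side of the threshold, as did 51 of 60 for Cxcl12. Srm kept its direction between FLT3/ITD and wild type cells, and Mat2a with Cxcl12, in all alternatives run.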
